A study of Sus scrofa with 9 samples.

Results

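The tumour suppressor p53 is a transcription factor that is kept at a low level in unstressed cells, because the ubiquitin ligase MDM2 marks it for degradation. DNA damage and other stress release it, and it then switches on genes for cell cycle arrest, DNA repair, cell death and its own feedback control. Fibroblasts in culture are a classical system for the arrest branch of this response. The 9 listed genes are direct p53 targets in human cells: MDM2, CCNG1 and ZMAT3, which feed back on p53 or act on RNA, BAX, BBC3, FAS, TP53INP1 and PHLDA3, which act in cell death, survival signalling or autophagy, and GDF15, which encodes a secreted cytokine. They were taken by gene symbol, and the gene that encodes p53 is not one of them. Of the 9 genes, 7 had values, out of 30477 gene IDs per library, and all 7 passed the filter on low values. BAX, which opens pores in the mitochondrial outer membrane, and PHLDA3, an inhibitor of AKT, had no matched value and were not analysed here.

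The cells were porcine embryonic fibroblasts, which are connective tissue cells grown from pig embryos, and total RNA depleted of ribosomal RNA was sequenced. The 3 groups were untreated cells at 0 h, cells treated with insulin for 48 h and cells treated with insulin for 72 h, with 3 libraries each that the submitters describe as biological replicates. The labels name neither the number of lines and embryos behind them nor the insulin concentration or the medium. No untreated cells of 48 h or 72 h were analysed, so the effects of insulin and of time in culture cannot be told apart. Values are FPKM, fragments scaled by gene length and by the mapped fragments of the library, so levels of different genes are per length and can be compared. In bulk RNA, fewer cells that express a gene and less RNA per cell cannot be told apart.

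Libraries of a group had correlations of log2 values of at least 0.990, and the highest between groups was 0.987. FPKM sums lay between 487858 and 563656. Fibroblast markers summed to 21239 to 22158 FPKM at 0 h, 18967 to 20272 at 48 h and 21668 to 22071 at 72 h, with 10 of 11 markers measured and each above 1 FPKM in at least 1 library. Not all single markers moved like the sum. COL1A1 did, with means of 8407, 7288 and 8196 FPKM at 0 h, 48 h and 72 h. PDGFRA did not, with 9.34, 26.9 and 36.4. The leukocyte genes PTPRC and CD3E and the endothelial gene CDH5 were at 0 in all 9 libraries. Other genes of these lists were not. The leukocyte gene CD14 had means of 1.83 FPKM at 0 h and 4.05 at 72 h. The endothelial gene CLDN5 went the other way, with 5.75 at 0 h and 1.49 at 72 h. The other marker sums were small except for mural cells (pericytes and smooth muscle), led by DES, at 1501 to 1529 FPKM at 0 h, 893 to 971 at 48 h and 823 to 1030 at 72 h, with all 6 markers measured. DES alone had a mean of 1440 FPKM at 0 h, and RGS5, KCNJ8 and ABCC9 were below 1 FPKM in every library. NOTCH3 had means of 52.7, 20.2 and 24.4 FPKM at 0 h, 48 h and 72 h, and MCAM 25.0, 12.9 and 9.60. Summed epithelial markers (5 of 6 measured) were 5.83 to 6.96, 12.6 to 13.9 and 9.68 to 10.7 FPKM at 0 h, 48 h and 72 h, endothelial ones (5 of 6) 6.40 to 6.67, 2.30 to 2.54 and 2.02 to 3.19, and leukocyte ones (6 of 6) 1.57 to 2.30, 4.04 to 5.17 and 3.78 to 5.37. The part of such cells in the results was not tested.

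CCNG1 was the most abundant of the 7 genes at every time, at 66.3 ± 1.35 FPKM at 0 h, 83.1 ± 6.75 at 48 h and 98.7 ± 5.06 at 72 h (mean ± SD, n = 3 each). MDM2 and GDF15 followed, with libraries that overlapped at each time, and ZMAT3 came next at each time. BBC3 had the lowest level at every time, and its libraries overlapped with those of no other listed gene. FAS lay above TP53INP1 at 0 h with no overlap, while at 48 h and 72 h the libraries of these neighbours overlapped, with the TP53INP1 mean higher. All 7 are protein-coding genes. In Sscrofa11.1 none of their spans overlaps another gene of the RefSeq table.

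**Figure D1:**
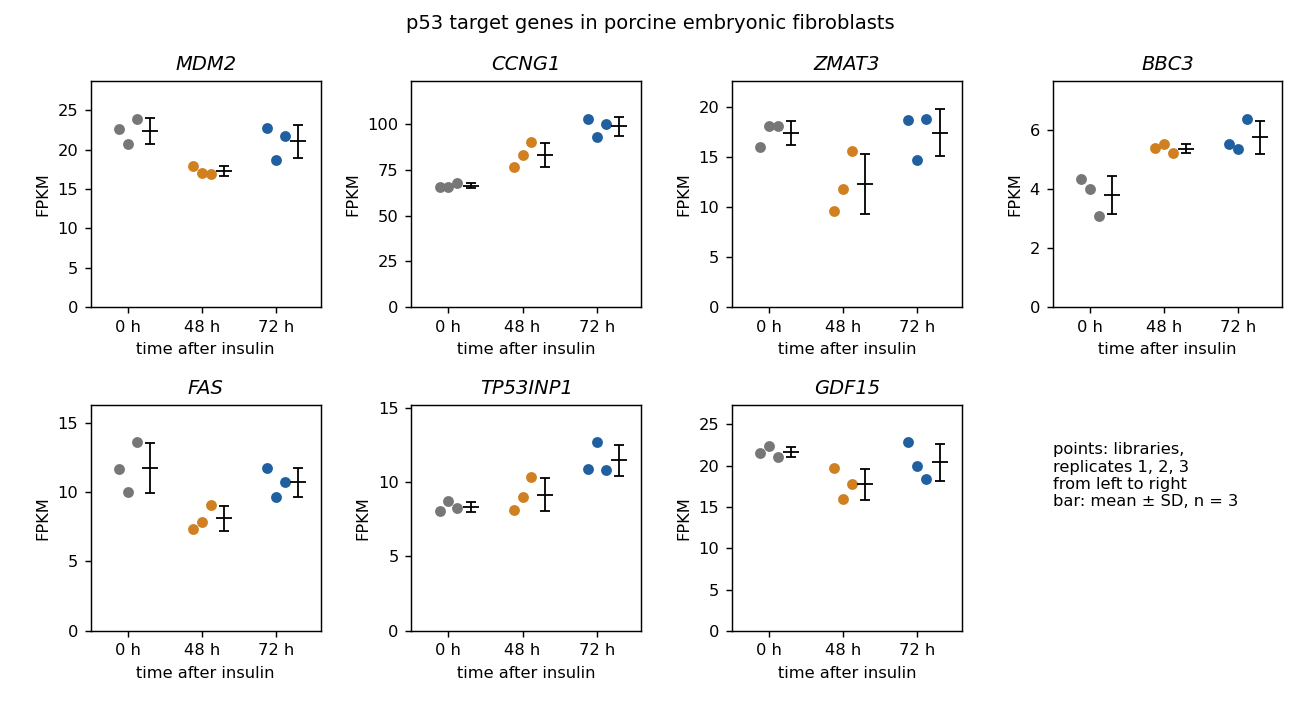
FPKM (vertical axis, from 0) of the 7 measured p53 target genes at 0 h, 48 h and 72 h after insulin; points are libraries and bars the mean ± SD of 3. MDM2, ZMAT3, FAS and GDF15 have their lowest mean at 48 h, whereas CCNG1, BBC3 and TP53INP1 have their highest mean at 72 h.

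Of the genes of p53 feedback and RNA control, MDM2 and ZMAT3 were lower at 48 h against 0 h, whereas CCNG1 was higher. Each was higher at 72 h against 48 h. MDM2 (chromosome 5, 33105717 to 33137602) encodes the ligase that degrades p53 and is itself induced by it. It had 22.6, 20.6 and 23.9 FPKM at 0 h, 18.0, 17.0 and 16.8 at 48 h and 22.8, 18.7 and 21.7 at 72 h (replicates 1, 2 and 3). All 48 h libraries lay below every library of the other times, and the 72 h libraries overlapped with those of 0 h, replicate 2 of 72 h lying below them all. Of all 11063 genes tested, the libraries of 6633 did not overlap at 48 h against 0 h. The counts were 6479 at 72 h against 0 h and 4299 at 72 h against 48 h. A lack of overlap thus sets neither MDM2 nor a gene described below apart. On the log2(FPKM + 1) scale, used for all changes here, MDM2 fell by 0.35 ± 0.08 (SE) at 48 h against 0 h (adjusted p = 0.00485), and was at -0.09 ± 0.08 at 72 h against 0 h (adjusted p = 0.417). It was higher by 0.27 ± 0.08 at 72 h against 48 h (adjusted p = 0.0353).

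CCNG1 (chromosome 16, 60349255 to 60356737) encodes cyclin G1, which brings protein phosphatase 2A to MDM2. Its libraries held 65.5, 65.5 and 67.8 FPKM at 0 h, 76.4, 82.9 and 89.9 at 48 h and 103, 93.1 and 100.1 at 72 h. The 3 times did not overlap. CCNG1 rose by 0.32 ± 0.07 at 48 h (adjusted p = 0.00303) and by 0.57 ± 0.07 at 72 h (adjusted p = 6.03e-05) against 0 h, and by 0.25 ± 0.07 at 72 h against 48 h (adjusted p = 0.0230).

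ZMAT3 (chromosome 13, 117113272 to 117147639) encodes a zinc finger protein that binds RNA and acts on splicing and RNA stability. It had 15.9, 18.1 and 18.0 FPKM at 0 h, 9.60, 11.8 and 15.5 at 48 h and 18.7, 14.7 and 18.8 at 72 h. The 48 h libraries lay below those of 0 h but were widely spread, with a coefficient of variation of 24.3%, the widest of any listed gene and time, and they overlapped with those of 72 h. ZMAT3 fell by 0.49 ± 0.15 at 48 h against 0 h (adjusted p = 0.0184), was at -0.00 ± 0.15 at 72 h against 0 h (adjusted p = 0.990) and was higher by 0.48 ± 0.15 at 72 h against 48 h (adjusted p = 0.0348).

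The genes of cell death and autophagy also divided. BBC3 (chromosome 6, 53037103 to 53046902) encodes PUMA, a protein that binds and neutralises the survival members of the BCL2 family. It had 4.33, 4.0 and 3.09 FPKM at 0 h, 5.38, 5.52 and 5.22 at 48 h and 5.53, 5.35 and 6.39 at 72 h. Every insulin-treated library lay above every 0 h library, and those of 48 h and 72 h overlapped. BBC3 rose by 0.42 ± 0.10 at 48 h (adjusted p = 0.00721) and by 0.50 ± 0.10 at 72 h (adjusted p = 0.00259) against 0 h, and was at 0.08 ± 0.10 at 72 h against 48 h (adjusted p = 0.585). The pseudocount of 1 weighs on a gene of this level, and with one of 0.1 the changes against 0 h were 0.50 at 48 h and 0.59 at 72 h.

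FAS (chromosome 14, 100927305 to 100954781) encodes the cell surface receptor for FAS ligand, which starts the caspase cascade from outside the cell. Its values were 11.7, 10.01 and 13.6 FPKM at 0 h, 7.37, 7.87 and 9.07 at 48 h and 11.8, 9.68 and 10.7 at 72 h. The 48 h libraries lay below all others, and those of 0 h and 72 h overlapped. FAS fell by 0.48 ± 0.11 at 48 h against 0 h (adjusted p = 0.00522), was at -0.12 ± 0.11 at 72 h against 0 h (adjusted p = 0.427) and was higher by 0.37 ± 0.11 at 72 h against 48 h (adjusted p = 0.0367). The gene of its ligand, FASLG, was below 0.1 FPKM in every library and was not tested.

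TP53INP1 (chromosome 4, 41747654 to 41766688) encodes a stress protein of the nucleus and of autophagosomes that favours phosphorylation of p53. It had 8.05, 8.71 and 8.29 FPKM at 0 h, 8.12, 8.99 and 10.3 at 48 h and 10.9, 12.7 and 10.8 at 72 h. The 48 h libraries overlapped with those of 0 h, and the 72 h libraries lay above all others. TP53INP1 was at 0.11 ± 0.09 at 48 h against 0 h (adjusted p = 0.328) and rose by 0.41 ± 0.09 at 72 h against 0 h (adjusted p = 0.00382) and by 0.30 ± 0.09 at 72 h against 48 h (adjusted p = 0.0357).

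GDF15 (chromosome 2, 59409035 to 59411356) encodes a secreted cytokine of the TGF-beta superfamily that acts on a receptor of the hindbrain, and it is induced by p53 and by other stress pathways. It had 21.5, 22.3 and 21.1 FPKM at 0 h, 19.7, 15.9 and 17.7 at 48 h and 22.8, 20.0 and 18.4 at 72 h. The 48 h libraries lay below those of 0 h, and the 72 h libraries overlapped with both other times. GDF15 fell by 0.28 ± 0.09 at 48 h against 0 h (adjusted p = 0.0271). It was at -0.09 ± 0.09 at 72 h against 0 h (adjusted p = 0.465) and at 0.19 ± 0.09 at 72 h against 48 h (adjusted p = 0.145).

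**Figure D2:**
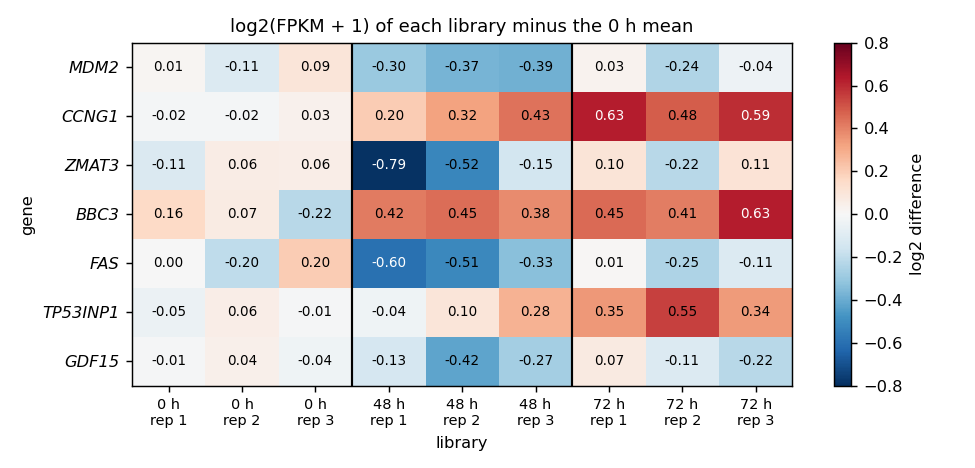
Difference of log2(FPKM + 1) between each library (columns, 3 per time) and the 0 h mean for the 7 genes (rows). ZMAT3 ranges from -0.79 to -0.15 among the 48 h libraries, and CCNG1 and BBC3 are above the 0 h mean in all 6 insulin-treated libraries.

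Libraries of one time differed in ways that several listed genes shared. Replicate 2 of 72 h was the lowest of its group for MDM2, CCNG1, ZMAT3, BBC3 and FAS and the highest for TP53INP1. Replicate 1 of 48 h was the lowest of its group for CCNG1, ZMAT3, FAS and TP53INP1, and replicate 3 the highest for the same 4 genes. Replicate 3 of 48 h was also the library placed deepest by the steps between low FPKM values, at 1.31 times the depth of 0 h replicate 1. The other 7 libraries were placed at the same depth as 0 h replicate 1. Each depth is the most frequent ratio, held by 34 of 453 genes compared for 48 h replicate 3. For the other 7 libraries 58 to 80 genes held it, so these depths are rough estimates. The part of depth in these differences was not tested.

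At 48 h against 0 h, 6 of the 7 genes were called, 2 higher (CCNG1 and BBC3) and 4 lower (MDM2, ZMAT3, FAS and GDF15). Across all 11063 genes tested 49.9% were called, 27.6% higher and 22.4% lower. With so much of the transcriptome called, the count of listed genes is not a result about p53 targets. The median change of the 7 genes was -0.28, against 0.02 over all genes tested, and their changes ran from -0.49 to 0.42.

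The calls of MDM2 and FAS were kept in all 20 alternatives run, with log2 changes of -0.48 to -0.31 and -0.60 to -0.38. CCNG1 was no longer called under quantile normalization (0.15, adjusted p = 0.138), at equal FPKM sums (0.18, adjusted p = 0.0836) and once each library was corrected for its trend over gene span (0.11, adjusted p = 0.303), and BBC3 was lost in the last of these (0.24, adjusted p = 0.0877), an alternative chosen after the data were seen. The call of ZMAT3 was lost without 0 h replicate 2 (adjusted p = 0.0555), 0 h replicate 3 (0.0576), 48 h replicate 1 (0.0649) or 48 h replicate 2 (0.0528), and without a filter on low values (0.0566). That of GDF15 was lost without 0 h replicate 1 (adjusted p = 0.0616), 0 h replicate 2 (0.0823), 0 h replicate 3 (0.0529) or 48 h replicate 2 (0.111), and without the filter (0.0580), while its change was -0.61 with the gene span trend removed. At equal FPKM sums the median change over all genes tested was -0.10 at 48 h against 0 h, against 0.02 as deposited. Of the called genes 34.7% were then higher, against 55.2% as deposited.

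Gene span moved with time in these libraries. At 48 h against 0 h the median log2 change was 0.20 for the genes with the shortest spans, -0.01 for those in the middle and -0.14 for those with the longest, in 3 classes of equal size. The median of the longest class minus that of the shortest, each taken against the 0 h mean, was -0.48, -0.34 and -0.21 in 48 h replicates 1, 2 and 3 and -0.14, -0.19 and -0.06 in those of 72 h. CCNG1 (span 7483 bases), BBC3 (9800) and GDF15 (2322) belong to the shortest class, and MDM2 (31886), ZMAT3 (34368), FAS (27477) and TP53INP1 (19035) to the middle class. With the trend removed, MDM2, ZMAT3 and FAS were at -0.35, -0.47 and -0.50 at 48 h, all still called.

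**Figure D3:**
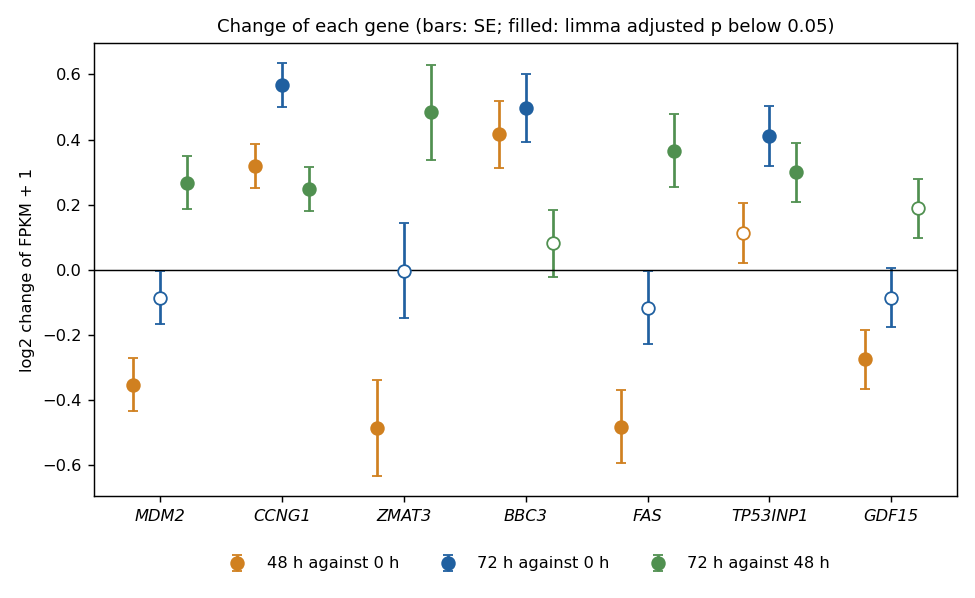
Log2 change ± SE of each gene in the 3 comparisons; filled points have a limma adjusted p below 0.05. MDM2, ZMAT3 and FAS are below 0 at 48 h against 0 h and above 0 at 72 h against 48 h, and CCNG1 is above 0 in all 3 comparisons.

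At 72 h against 0 h, CCNG1, BBC3 and TP53INP1 rose and none of the 7 genes fell. Among all genes tested 45.5% were called, 23.0% higher and 22.5% lower, so 3 of 7 is near the background. These 3 calls were kept in every alternative that held the gene, with log2 changes of 0.47 to 0.61 for CCNG1, 0.39 to 0.59 for BBC3 and 0.34 to 0.46 for TP53INP1. BBC3 could not be tested where a mean of at least 5 FPKM was asked for. MDM2, ZMAT3 and FAS were called in none of the 20 alternatives, and GDF15 was called lower only with the gene span trend removed (-0.25, adjusted p = 0.0258).

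At 72 h against 48 h, 5 of the 7 genes were called, all higher, namely MDM2, CCNG1, ZMAT3, FAS and TP53INP1. Over all genes tested 25.4% were called, 9.17% higher and 16.3% lower, and the median change was 0.27 for the 7 genes and -0.03 over all genes. At equal FPKM sums 55.9% of the called genes were higher, against 36.0% as deposited. The comparison shares its libraries with the others, so a gene that was low at 48 h enters both. The adjusted p values of the 5 calls lay between 0.0230 and 0.0367, and none of the 5 was kept without 48 h replicate 1, 48 h replicate 2, 72 h replicate 1 or 72 h replicate 3, where the adjusted p values were 0.0504 to 0.123 for MDM2, 0.0633 to 0.0820 for CCNG1, 0.0930 to 0.110 for ZMAT3, 0.0853 to 0.122 for FAS and 0.0520 to 0.109 for TP53INP1. Calls were also lost without 0 h replicate 1 for MDM2 (0.0542), FAS (0.0542) and TP53INP1 (0.0524), without 0 h replicate 3 for ZMAT3 (0.0501) and TP53INP1 (0.0543), without 48 h replicate 3 for MDM2 (0.0618) and without 72 h replicate 2 for TP53INP1 (0.10).

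**Figure D4:**
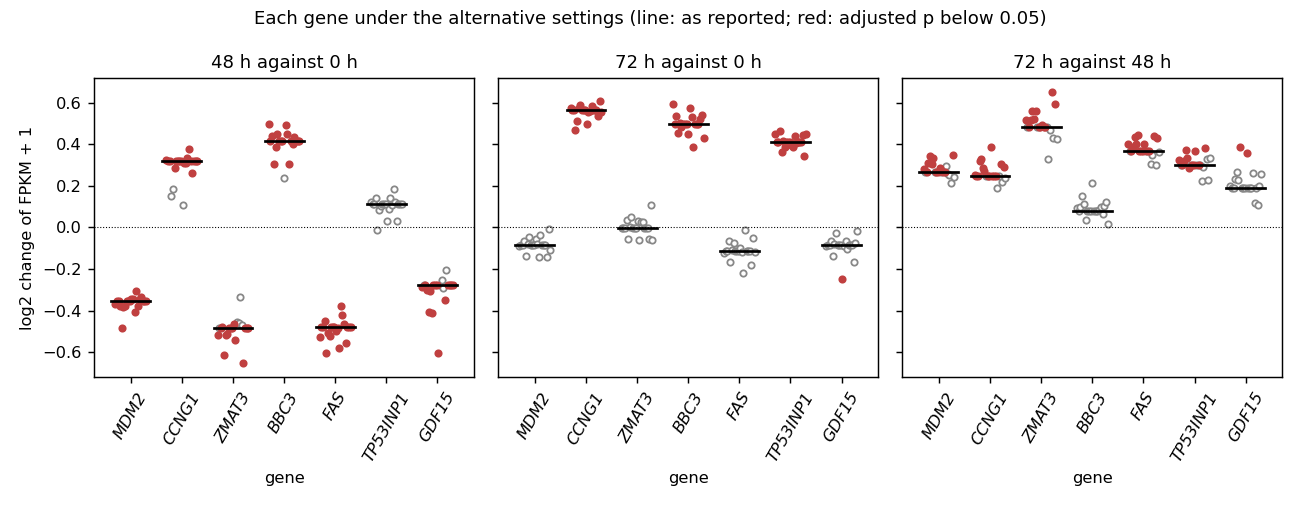
Log2 change of each gene in the 3 comparisons as reported (black line) and under each alternative (points; filled red where the adjusted p was below 0.05, open where not). At 72 h against 0 h CCNG1, BBC3 and TP53INP1 are red throughout, and at 72 h against 48 h each of the 5 called genes has open points.

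Other p53 targets also went both ways. Of a further 43 target genes, 37 had values and 34 were tested. At 48 h against 0 h 7 of them rose, 12 fell and 15 did not pass the test, with a median of -0.06, and at 72 h against 0 h 7 rose, 10 fell and 17 did not pass, with a median of -0.02. The shares called, 55.9% and 50%, were near those of all genes given above, whose medians were 0.02 and -0.01. At 72 h against 48 h 6 rose and 5 fell, with a median of 0.01 (-0.03 over all genes tested). That is 32.4% called, against 25.4% of all genes tested.

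CDKN1A, which encodes the CDK inhibitor p21 and is the main arrest gene downstream of p53, had 105.7, 104.8 and 105.1 FPKM at 0 h, 149.5, 127 and 123 at 48 h and 156, 148 and 162 at 72 h. Its libraries of 48 h and 72 h all lay above those of 0 h and overlapped with each other. It rose by 0.56 ± 0.07 at 72 h against 0 h (adjusted p = 1.17e-04), and by 0.33 ± 0.07 at 48 h (adjusted p = 0.00366), a call that was lost under quantile normalization (0.16, adjusted p = 0.0764) and with the gene span trend removed (0.14, adjusted p = 0.0783). Other arrest genes fell. E2F7, a repressor of cell cycle genes, was at 0.907 ± 0.133 FPKM at 72 h against 3.33 ± 0.261 at 0 h (log2 change -1.18 ± 0.09, or -1.77 with a pseudocount of 0.1), and GADD45A, a growth arrest and DNA damage gene, at 211 ± 35.3 against 297 ± 15.8 (-0.50 ± 0.12). Of the 7 tested arrest genes, 2 rose and 4 fell in each comparison with 0 h, where 49.9% and 45.5% of all genes tested were called at 48 h and 72 h. The means and SD of these lists are over 3 libraries a group, and the changes printed passed the test unless an adjusted p above the threshold is given.

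PLK2, a kinase of the polo family named here after its values were seen, was low at 48 h like MDM2, with 13.9 ± 1.01 FPKM at 48 h against 26.3 ± 0.962 at 0 h (-0.87 ± 0.07, adjusted p = 7.61e-06). At 72 h it had 22.8 ± 1.46 FPKM, higher by 0.67 ± 0.07 than at 48 h (adjusted p = 1.20e-04). Its change at 72 h against 0 h was -0.20 ± 0.07 (adjusted p = 0.0393), a call lost without 0 h replicate 1, 2 or 3 (adjusted p = 0.0534, 0.119 and 0.109), without 72 h replicate 2 (0.0785) or 3 (0.122), without the filter (0.0558) and with a replicate block (0.0573).

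In the repair group POLH, the polymerase that copies past ultraviolet damage, fell to 6.02 ± 0.346 FPKM at 72 h, against 12.9 ± 0.845 at 0 h (-0.99 ± 0.10, adjusted p = 1.72e-05), and by 0.83 at 48 h. Of the 5 repair genes tested at 72 h against 0 h, 0 rose and 2 fell (40.0% called, against 45.5% of all genes tested). The other was ASCC3, a helicase, which like DDB2 is named here after its values were seen. The change of ASCC3 was -0.29 ± 0.09 (adjusted p = 0.0251), a call lost without 0 h replicate 1, 2 or 3 (adjusted p = 0.0504, 0.0757 and 0.0623), without 72 h replicate 1 (0.0522) or 2 (0.0692) and without the filter (0.0551). DDB2, which recognises ultraviolet damage, rose at 48 h, with 11.7 ± 1.41 FPKM at 48 h against 8.34 ± 0.485 at 0 h (0.44 ± 0.10), and 8.72 ± 1.05 at 72 h (0.05 ± 0.10 against 0 h, adjusted p = 0.698; -0.39 ± 0.10 against 48 h, adjusted p = 0.0206). The last call was lost without 48 h replicate 1 (adjusted p = 0.0678) or 2 (0.0698), without 72 h replicate 1 (0.0726) and without the filter (0.0539). In the cell death group 3 of 6 rose at 72 h against 0 h and 1 fell (66.7% called, against 45.5% of all genes tested). With so few genes this share is not a result about the group. PMAIP1, which encodes NOXA, a BH3-only protein like PUMA, had 8.39 ± 0.296 FPKM at 0 h, 8.03 ± 1.18 at 48 h and 7.02 ± 0.910 at 72 h, and did not pass the test at either time (adjusted p = 0.644 and 0.0993), although both changes were called lower with the gene span trend removed (-0.35 and -0.37, adjusted p = 0.0351 and 0.0277). It is named here after its values were seen, as is APAF1, the scaffold of the apoptosome, which had 7.43 ± 0.574 FPKM at 72 h against 6.15 ± 0.251 at 0 h (0.24 ± 0.07, adjusted p = 0.0207). That call was lost without 0 h replicate 1 (adjusted p = 0.0818), without 72 h replicate 3 (0.0730) and at equal FPKM sums (0.0761). RPS27L, a relative of a ribosomal protein, had 40.1 ± 6.20 FPKM at 72 h against 28.4 ± 1.27 at 0 h (0.47 ± 0.12), and may share reads with its close relative RPS27. PIDD1, a scaffold that activates caspase-2, had 5.87 ± 0.525 against 4.26 ± 0.110 (0.38 ± 0.11, lost without 72 h replicate 1 at 0.33, adjusted p = 0.0581). At 48 h PIDD1 was higher, at 7.46 ± 1.40 FPKM (0.67 ± 0.11 against 0 h). PERP, a membrane protein of desmosomes, fell to 7.42 ± 0.449 at 72 h, against 10.9 ± 0.373 at 0 h (-0.50 ± 0.09).

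CD82, a tetraspanin of the cell surface, had the largest rise among the other targets at 72 h against 0 h, with 7.37, 11.8 and 8.01 FPKM at 72 h against 3.9, 3.68 and 4.19 at 0 h (1.01 ± 0.14, adjusted p = 2.27e-04). All 3 libraries of 72 h lay above those of 0 h. Among 7 metabolic targets 1 rose and 1 fell at 72 h against 0 h (28.6% called, against 45.5% of all genes tested). CMBL, a hydrolase, rose by 0.29 ± 0.09 and TIGAR, a phosphatase that restrains glycolysis, fell by 0.30 ± 0.10, both named after their values were seen. CMBL lost its call without 0 h replicate 1 (adjusted p = 0.0707) or 2 (0.0535) and without 72 h replicate 2 (0.0748) or 3 (0.0661). TIGAR lost it without 0 h replicate 1 (adjusted p = 0.0799) or 3 (0.0971), without 72 h replicate 2 (0.106), without the filter (0.0687) and under quantile normalization (0.0574).

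**Figure D5:**
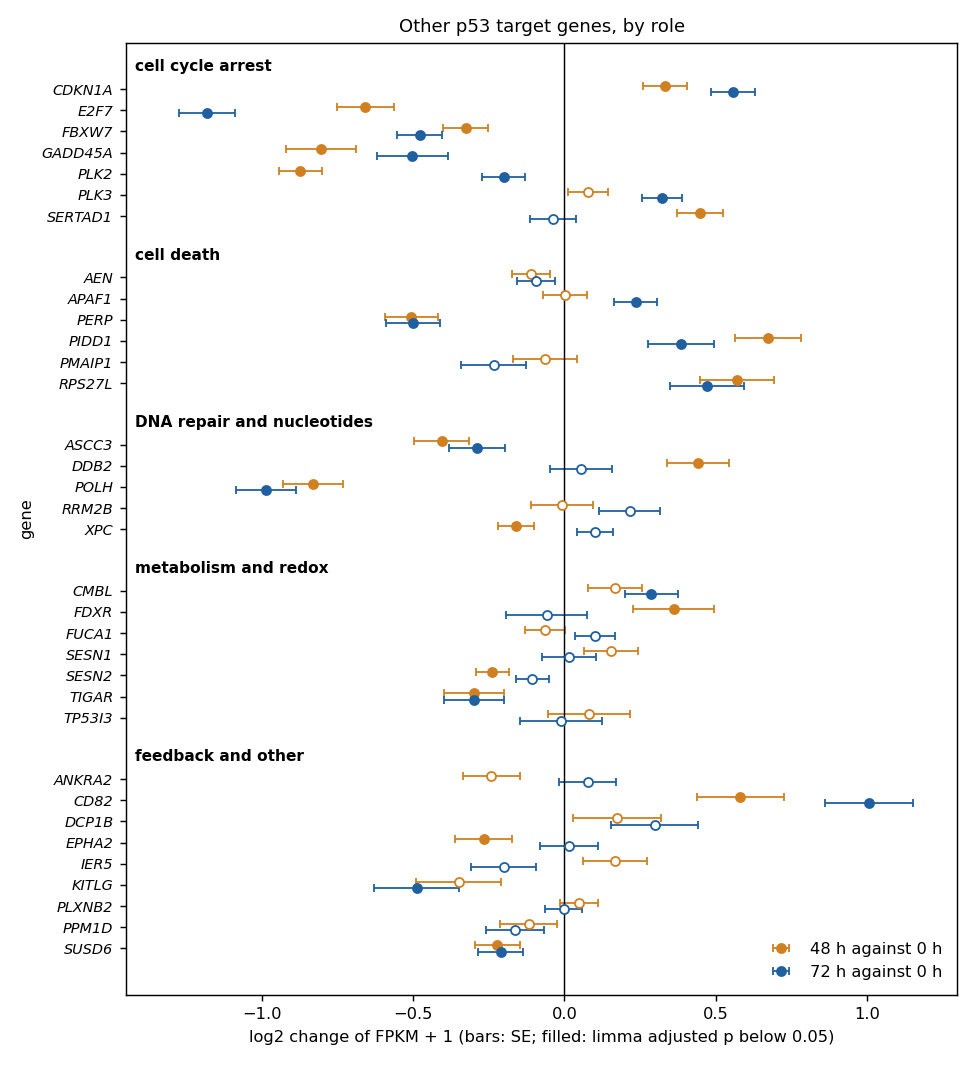
Log2 change ± SE of the 34 tested genes of the wider p53 target list at 48 h and 72 h against 0 h, grouped by role; filled points have a limma adjusted p below 0.05. Points lie on both sides of 0 in each role, and run from E2F7 at -1.18 to CD82 at 1.01, both at 72 h.

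Regulators and partners of p53 also went both ways. Of 19 listed genes 18 were tested, of which 4 rose and 4 fell at 48 h and 4 rose and 8 fell at 72 h, with medians of -0.08 and -0.12, and at 72 h against 48 h 0 rose and 3 fell. The shares called were 44.4%, 66.7% and 16.7%, against 49.9%, 45.5% and 25.4% of all genes tested. RCHY1, another ubiquitin ligase of p53, had 15.2 ± 1.19 FPKM at 72 h against 11.6 ± 1.09 at 0 h (0.35 ± 0.09). MDM4, the partner of MDM2 that masks p53, had 12.9 ± 0.445 FPKM at 0 h, 11.8 ± 0.493 at 48 h and 13.4 ± 1.17 at 72 h, and did not pass the test at either time (adjusted p = 0.210 and 0.619, named after its values were seen; -0.24 at 48 h at equal FPKM sums, adjusted p = 0.0270). TP53BP2, a cofactor that directs p53 to cell death genes, fell to 16.1 ± 0.383 at 72 h, against 23.6 ± 1.11 at 0 h (-0.52 ± 0.08), and PRMT5, a methyltransferase that modifies p53, to 30.5 ± 0.605, against 39.1 ± 1.83 (-0.35 ± 0.06). RPL11, a ribosomal protein that binds and restrains MDM2, rose by 0.35 ± 0.08 at 72 h (0.21 with the gene span trend removed). At 48 h against 0 h RPL11 rose by 0.57 ± 0.08 (0.28 to 0.63 over the alternatives). Ribosomal protein genes have many processed copies, which leaves its level uncertain.

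In the machinery of cell death that BBC3 and FAS act on, 19 of 26 listed genes were tested, and 6 rose and 1 fell at 48 h, while 4 rose and 4 fell at 72 h against 0 h, and 0 rose and 5 fell at 72 h against 48 h. The shares called, 36.8%, 42.1% and 26.3%, were below or near those of all genes tested, 49.9%, 45.5% and 25.4%. BAD and BMF, which like BBC3 belong to the BH3-only group, had 16.5 ± 0.430 and 4.15 ± 0.593 FPKM at 72 h against 11.6 ± 2.21 and 2.61 ± 0.320 at 0 h (0.49 ± 0.12 and 0.51 ± 0.10). BAD was higher at 48 h, at 23.3 ± 3.31 FPKM (0.95 ± 0.12 against 0 h). Its fall at 72 h against 48 h (-0.46 ± 0.12, adjusted p = 0.0206) was kept in 16 of 20 alternatives. BMF had 3.39 ± 0.165 FPKM at 48 h. BOK, a relative of BAX, fell to 9.93 ± 1.63 at 72 h, against 16.0 ± 1.40 at 0 h (-0.64 ± 0.11), and CYCS, the cytochrome c released from mitochondria, to 37.1 ± 1.66, against 47.1 ± 2.33 (-0.34 ± 0.06).

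Of 15 cell cycle genes that p53 represses through p21 and the DREAM complex, 11 were tested and all 11 fell at both times, with medians of -1.03 at 48 h and -2.05 at 72 h. Of all genes tested 22.4% and 22.5% were called lower, with medians of 0.02 and -0.01. TOP2A, which untangles DNA, had 9.20 ± 1.10 FPKM at 72 h against 51.6 ± 1.60 at 0 h (-2.37 ± 0.11), and AURKB, a mitotic kinase, 4.24 ± 1.24 against 23.0 ± 0.450 (-2.22 ± 0.14). These genes are also low in cells that stop dividing for other reasons, so the list is not specific to p53. Among 5 tested factors of 6 listed that can induce GDF15 without p53, 2 rose and 1 fell at 48 h and 4 rose at 72 h. That is 60% and 80% called, against 49.9% and 45.5% of all genes tested. EGR1, an immediate early factor, had 33.5 ± 0.50 FPKM at 0 h, 9.89 ± 1.17 at 48 h and 89.6 ± 9.33 at 72 h, and DDIT3, a factor of the integrated stress response, 44.7 ± 4.0, 88.1 ± 3.57 and 63.3 ± 2.80 at the same times.

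The genes whose log2 values were most like those of MDM2 over the 9 libraries were NIPAL3 (Pearson r = 0.961), NEK1 (0.949) and DYM (0.948), with listed members left out. For CCNG1, the listed gene with the largest log2(FPKM + 1) change in any comparison (with a pseudocount of 0.1 it was BBC3, at 0.59 against 0.57), they were SAMHD1 (0.991), STAT3 (0.987) and ARHGAP28 (0.987). These correlations are descriptions over 9 libraries that fall into 3 groups.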

How the data were processed

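The authors deposited 1 FPKM value per gene and library with 2 decimals, per the file headers. Sscrofa11.1, DESeq2, RSEM 1.2.28, featureCounts 2.0.2 and HISAT2 2.1.0 are listed, without role or order, per the submitters' processing notes. Whether strand was used is not stated there. FPKM is scaled within a library, so abundant transcripts that rise lower all others.

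Gene IDs were paired with symbols for 14864 of 30477 IDs, and spans and coordinates came from RefSeq's Sscrofa11.1 table by symbol. A gene was tested when 3 or more libraries had 1 FPKM or more, and the 11063 such genes entered limma 3.58.1 (R 4.3.3) as log2(FPKM + 1), with group as the only term, all 9 libraries and a variance trend. Tests were two-sided, and calls were made at 0.05 after Benjamini-Hochberg adjustment over all genes tested. The fit was tested on simulated data. Alternatives changed the pseudocount, filter, scaling, library weights, samples fitted, replicate block and libraries left out, and, chosen after the data were seen, the span trend. The p values set each difference between groups against the spread between libraries. The number of lines and embryos is not given, so spread between independent lines may not be covered.

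The members, gene lists, alternatives and naming rule were chosen with earlier results of these data known. The rule took all members, CDKN1A, the 4 highest and 4 lowest called genes of the wider target list at 72 h against 0 h, 2 and 2 of each other list, and 3 genes each most like MDM2 and the member that changed most. Read counts are not known, and the depth of libraries was compared from ratios of low FPKM values.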

Additional observations from a re-analysis of the deposited data

How the results depend on the processing

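Of 2 members called higher at 48 h against 0 h, 1 was left under quantile normalization, at equal FPKM sums and with a mean of at least 5 FPKM, and 0 with the gene span trend removed, an alternative chosen after the data were seen. Of 4 called lower, 2 were left without a filter on low values. At 72 h against 0 h 1 member was lower with the span trend removed. Of 5 called higher at 72 h against 48 h, 1 was left without a filter and 1 in a fit of only the 2 groups compared. Leaving out each library in turn gave 2 to 4 lower at 48 h against 0 h and 0 to 5 higher at 72 h against 48 h. The replicate block gave the same member counts as the fit without it, 2 higher and 4 lower at 48 h, 3 higher at 72 h and 5 higher at 72 h against 48 h. Same-numbered libraries had correlations of deviations from -0.07 to 0.19, and differently numbered ones from -0.18 to 0.17. At 72 h against 0 h the same-numbered ones, 0.06, 0.08 and 0.18, were above all others of that comparison. In the other comparisons they were not. The numbers were not taken as pairs. Over the log2 changes of the genes named with a test, those chosen after their values were seen included, 139 calls were lost and 51 gained among 2448 values under alternatives, and none changed sign with a call. Library weights were taken from an estimation that stopped before full convergence. A median SE of 0.0883 on the log2 scale at 48 h against 0 h, from 3 libraries a group, limits small changes.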
